A study of Homo sapiens with 66 samples.

Results

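The genes of the BCL2 family that guard or breach the mitochondrion, 5 of them pro-survival (BCL2, BCL2L1, BCL2L2, MCL1, BCL2A1) and 5 of them BH3-only death genes (BCL2L11, BBC3, BMF, PMAIP1, BIK), were followed in A375 cells, a BRAF-mutant line from a human melanoma. The 10 members were chosen by name and role, with earlier results of these data known. They are 10 of the 58721 genes in each of 3 tables of read counts. Their shares and sizes beside those of all genes are therefore a description. All 10 were matched by symbol to 1 Ensembl ID, and all passed the filter on low counts in each table. The study removed single subunits of Mediator, which carries signals of gene regulators to RNA polymerase II, or the deacetylase HDAC3, or raised the neural crest factor SOX10. In the Mediator experiment, cells carried 1 of 2 guides against MED12, MED19 or MED23, or a guide named for GFP (control cells, genotype labelled WT), and each received 1 µM vemurafenib, an inhibitor of mutant BRAF, or DMSO for 24 h. In the SOX10 experiment, cells with MED23 guide 1 or with the GFP guide overexpressed SOX10 or carried an empty vector. The HDAC3 experiment held cells without HDAC3 and MED23 (double knockout), cells without HDAC3, cells without MED23, and controls (genotype labelled WT). The sample labels give no drug for these 2 experiments, although the design text speaks of both untreated and treated cells. Each of the 22 groups has 3 libraries, 66 in all. The labels do not say whether these were separate cultures, so p-values measure only the spread between libraries, and they do not say whether knockout cells were pools or clones.

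Cells die by the mitochondrial route when the effectors BAX and BAK1 perforate the outer membrane and release cytochrome c. The survival proteins bind and restrain the effectors, and BH3-only proteins bind the survival proteins or the effectors and tip the balance towards death. In melanoma with mutant BRAF, ERK signalling is known to hold down BCL2L11 (which encodes BIM) and BMF, and BCL2A1 is known as a target of MITF, the factor of the melanocyte lineage.

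Total counts per library were 65.88 to 211.79 M in the Mediator experiment, 24.87 to 30.77 M in the SOX10 experiment and 58.84 to 106.19 M in the HDAC3 experiment. The mRNA of the targeted subunit was lower in each Mediator knockout, with log2 fold changes of -2.21 for MED12, -0.96 for MED19 and -1.21 for MED23 under vemurafenib. HDAC3 changed by -0.97 in its knockout, and SOX10 by 0.19 in control cells that overexpressed it. The counts thus show little of the SOX10 overexpression, which rests on the labels. Melanoma markers summed to 159 to 1366 CPM (counts scaled to the library's total) per library in the Mediator experiment, and markers of blood, endothelial, epithelial and fibroblast cells to 3.27 to 20.9, 0.842 to 6.65, 0.280 to 3.03 and 8.11 to 93.3 CPM. In bulk RNA, fewer cells of a kind and less RNA per cell cannot be told apart. Values below are CPM in single libraries and log2 fold changes ± SE, which edgeR's quasi-likelihood test gave over all genes of a table, with both guides of a subunit weighted equally. Adjusted p is the Benjamini-Hochberg value over all genes tested, and "rose", "fell" and "passed" refer to values under 0.05.

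The promoters of 4 members are shown first. BCL2A1, BMF and PMAIP1 had the largest changes of their drug response after MED12 loss, and BCL2L11 is a textbook gene of the response to ERK inhibition. RefSeq (GRCh38.p14) gives windows of 250 bases before to 50 after a start for 7 members, and MCL1, BCL2L2 and BIK have none. The lines show BMF at chr15:40108830-40109129 (minus strand), PMAIP1 at chr18:59899746-59900045 (plus strand), BCL2A1 at chr15:79971147-79971446 (minus strand) and BCL2L11 at chr2:111120664-111120963 (plus strand), each read 5′ to 3′ along the gene. Capitals mark the letters of the motifs searched, and an opposite-strand match appears as its reverse complement.
BMF: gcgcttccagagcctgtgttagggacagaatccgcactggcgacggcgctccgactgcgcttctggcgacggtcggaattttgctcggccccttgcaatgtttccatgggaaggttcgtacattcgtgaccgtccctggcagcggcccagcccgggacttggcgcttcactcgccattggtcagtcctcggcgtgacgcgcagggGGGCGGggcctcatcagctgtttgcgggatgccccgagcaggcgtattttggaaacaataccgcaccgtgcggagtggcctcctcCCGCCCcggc
PMAIP1: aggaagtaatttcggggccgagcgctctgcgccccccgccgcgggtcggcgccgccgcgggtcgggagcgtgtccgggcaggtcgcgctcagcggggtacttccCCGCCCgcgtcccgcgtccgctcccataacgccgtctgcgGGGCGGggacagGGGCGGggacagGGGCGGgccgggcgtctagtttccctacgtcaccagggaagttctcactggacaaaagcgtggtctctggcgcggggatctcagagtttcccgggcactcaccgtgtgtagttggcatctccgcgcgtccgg
BCL2A1: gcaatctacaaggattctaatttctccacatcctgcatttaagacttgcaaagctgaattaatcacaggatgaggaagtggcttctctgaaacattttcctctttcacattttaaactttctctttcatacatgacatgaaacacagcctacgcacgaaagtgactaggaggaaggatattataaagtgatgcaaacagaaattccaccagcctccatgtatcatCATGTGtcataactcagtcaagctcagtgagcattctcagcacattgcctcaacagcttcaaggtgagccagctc
BCL2L11: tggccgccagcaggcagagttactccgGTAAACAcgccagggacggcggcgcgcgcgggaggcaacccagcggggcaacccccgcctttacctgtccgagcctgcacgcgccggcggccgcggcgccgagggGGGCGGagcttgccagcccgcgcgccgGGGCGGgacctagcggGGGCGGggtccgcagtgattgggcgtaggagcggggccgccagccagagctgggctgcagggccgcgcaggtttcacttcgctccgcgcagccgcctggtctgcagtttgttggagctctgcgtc
The motifs were GGGCGG (GC box), CATGTG (M-box), CACGTG (E-box), GTAAACA (forkhead), TGACTCA (AP-1) and TGACGTCA (CRE), searched on both strands, and no motif overlaps another in these windows. GGGCGG stood 4 times in the PMAIP1 window, 3 times in that of BCL2L11 2 times in that of BMF (and not in a second BMF window) and 1 time in 1 of 2 BCL2L1 windows, and 45.0% of all 35116 windows in the RefSeq table hold it. CATGTG stood in the BCL2A1 window, at base -25 from the start, as in 11.1% of windows. GTAAACA stood in the BCL2L11 window, at base -223 from the start, as in 3.4% of windows. CACGTG (7.3% of windows) and the AP-1 letters (4.9%) were found in the BBC3 window, TGACGTCA (1.8%) in none of the 7 members, and the BCL2 window held no motif. A match describes letters in a window, not a bound site.

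The levels of the members in control cells spanned a wide range. On a per-length scale (CPM per kb of exon sequence in GENCODE 29), MCL1, a short-lived survival protein, was the most abundant at 80.4 ± 0.331 under vemurafenib and 152 ± 0.889 in DMSO (mean ± SD, n = 3 each). Under vemurafenib it was followed by BMF (36.6 ± 0.319), BCL2L1 (12.6 ± 0.395), BCL2L2 (11.5 ± 0.130), BBC3 (8.26 ± 0.429), BCL2L11 (4.37 ± 0.154), BCL2A1 (4.35 ± 0.733), PMAIP1 (0.813 ± 0.0704), BIK (0.307 ± 0.0757) and BCL2 (0.223 ± 0.0139) on this scale. In DMSO the order after MCL1 was BCL2L1 (15.3 ± 0.388), BCL2L2 (10.8 ± 0.583), PMAIP1 (9.59 ± 0.408), BBC3 (4.35 ± 0.468), BCL2L11 (1.99 ± 0.102), BCL2 (1.32 ± 0.0347), BMF (1.00 ± 0.0887), BCL2A1 (0.474 ± 0.0962) and BIK (0.371 ± 0.0711). The libraries of BCL2L11 and BCL2A1 and those of BIK and BCL2 overlapped under vemurafenib, as did those of BCL2A1 and BIK in DMSO, so these neighbours did not differ beyond their spread. BMF held the second place in the order under the drug and the eighth in DMSO. The exon length counts all annotated transcripts, so a gene that uses a short transcript is understated on this scale.

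In control cells, 24 h of vemurafenib lowered BCL2, MCL1, BCL2L1 and PMAIP1 and raised BMF, BCL2A1, BCL2L11 and BBC3. These were 8 of 10 members, 4 in each direction, against 66.2% of all genes (35.8% higher and 30.3% lower) among the 27453 tested, so the share of members called is near the background, and the sizes carry the description. The median absolute log2 fold change was 0.92 over the 5 survival genes and 1.13 over the 5 BH3-only genes, against 0.68 over all genes tested, whose median log2 fold change was 0.11. All 8 genes of a list of ERK output genes, the check that the drug acted, fell, with a median of -3.32.

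Among the survival genes, BCL2 (ENSG00000171791, chr18:63123346-63320128, minus strand), the founding member of the family, stood at 2.65, 2.76 and 2.44 CPM under vemurafenib, against 15.3, 15.9 and 15.2 CPM in DMSO. The groups did not overlap, and BCL2 fell 5.93-fold (-2.57 ± 0.089, adjusted p = 8.55e-30). MCL1 (ENSG00000143384, chr1:150574551-150579738, minus strand) stood at 327, 329.9 and 328 CPM under the drug and 625, 621 and 618 CPM in DMSO, a fall by 1.89-fold (-0.92 ± 0.022, adjusted p = 6.56e-37) with little spread between libraries. BCL2L1 (ENSG00000171552, chr20:31664452-31723989, minus strand), which encodes BCL-XL, was at 36.1, 35.0 and 37.3 CPM, against 43.2, 45.0 and 43.0 CPM, a small fall (-0.28 ± 0.037, adjusted p = 4.98e-09) without overlap. BCL2L2 (ENSG00000129473, chr14:23298790-23311759, plus strand), which encodes BCL-W, was at 42.1, 41.4 and 41.2 CPM under the drug and 41.0, 39.5 and 36.8 CPM in DMSO (0.09 ± 0.042, adjusted p = 0.0568). Its drug-treated libraries lay just above those in DMSO, but the difference did not pass. BCL2A1 (ENSG00000140379, chr15:79960889-79971446, minus strand), the survival gene that is known as an MITF target, was scarce in DMSO. It stood at 5.09, 5.29 and 3.82 CPM under vemurafenib, against 0.586, 0.567 and 0.396 CPM in DMSO, and rose 9.26-fold (3.21 ± 0.20, adjusted p = 2.56e-19), with 1633 counts over 3 drug-treated libraries and 222 over 3 in DMSO. MITF itself rose in this comparison (1.05 ± 0.035, adjusted p = 1.79e-30), and its part in the level of BCL2A1 was not tested.

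Among the BH3-only genes, BMF (ENSG00000104081, chr15:40087890-40108892, minus strand), which is known to bind survival proteins after release from the cytoskeleton, changed most. BMF was at 179, 179 and 182 CPM under vemurafenib and at 4.52, 5.38 and 4.84 CPM in DMSO, a rise of 36.3-fold (5.18 ± 0.058, adjusted p = 5.89e-50). Every drug-treated library lay far above every DMSO library. PMAIP1 (ENSG00000141682, chr18:59899948-59904306, plus strand), which encodes NOXA, the BH3-only protein that binds MCL1, went the other way. PMAIP1 was at 1.57, 1.86 and 1.69 CPM under vemurafenib, against 20.8, 19.2 and 20.4 CPM in DMSO, a fall of 11.8-fold (-3.56 ± 0.073, adjusted p = 2.05e-39) with no overlap. BCL2L11 (ENSG00000153094, chr2:111119378-111168447, plus strand), which encodes BIM, was at 26.3, 25.9 and 27.7 CPM under the drug and 11.5, 12.2 and 12.8 CPM in DMSO (1.13 ± 0.053, adjusted p = 1.72e-24). BBC3 (ENSG00000105327, chr19:47220822-47232766, minus strand), which encodes PUMA, was at 18.3, 16.5 and 17.1 CPM under the drug and 7.98, 9.74 and 9.60 CPM in DMSO (0.92 ± 0.068, adjusted p = 8.64e-17). Both genes rose, with each drug-treated library above each DMSO library. BIK (ENSG00000100290, chr22:43110748-43129712, plus strand), a BH3-only protein of the endoplasmic reticulum, was at 0.366, 0.222 and 0.291 CPM under vemurafenib and 0.332, 0.299 and 0.429 CPM in DMSO (-0.27 ± 0.28, adjusted p = 0.408), with 15 to 140 counts per library over the whole Mediator experiment.

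**Figure D1:**
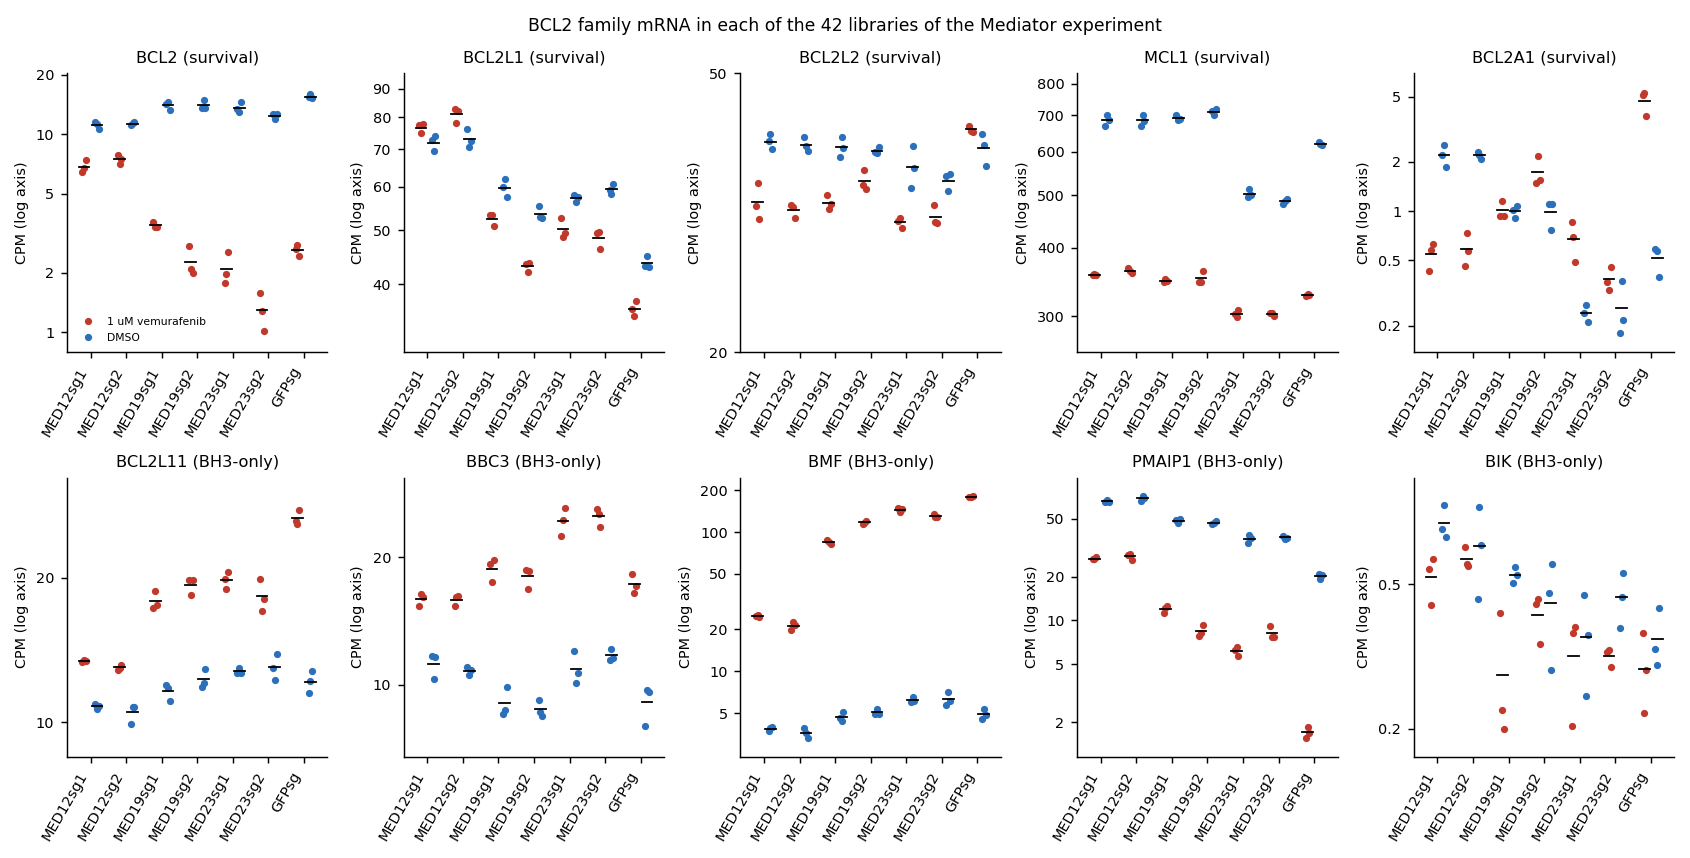
CPM on a log axis of each member in each library of the Mediator experiment, by guide (sg1 and sg2 are guides 1 and 2, GFPsg the control guide), with vemurafenib in red and DMSO in blue (1 point per library, line at the mean of 3). BMF in vemurafenib sits at 179 to 182 CPM with the GFP guide and at 19.7 to 25.3 CPM with the MED12 guides, while PMAIP1 in vemurafenib is lowest with the GFP guide.

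Some members overlap other annotated genes, and with the strand setting of the counting unknown, reads of antisense partners cannot be told apart from theirs. Of the exon bases of BCL2L1, 42.8% lie opposite exons of the antisense gene ABALON, which itself had 0.358 to 1.89 CPM. BCL2L11 shares 11.9% of its exon bases with MIR4435-2HG on the opposite strand. MIR4435-2HG averaged 4.31 ± 0.499 CPM under vemurafenib and 21.0 ± 0.394 CPM in DMSO (SD, n = 3 each), and fell (-2.29 ± 0.064, adjusted p = 1.38e-33) while BCL2L11 rose. BCL2L2 shares 16.3% of its exon bases with the readthrough gene BCL2L2-PABPN1, which averaged 0.595 ± 0.174 CPM under the drug and 0.310 ± 0.00313 CPM in DMSO. BMF shares 9.4% with BMF-AS1, which had 0 counts in all 66 libraries. BCL2, BCL2A1, BBC3, PMAIP1 and BIK share no exon bases with another annotated gene, and MCL1 shares 2.

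Without the drug, the knockouts were compared with control cells after 24 h in DMSO, and all 3 comparisons share the same 3 control libraries. PMAIP1 and BCL2L1 rose with the loss of each subunit. PMAIP1 stood at 65.3 to 71.1 CPM over the 6 MED12 knockout libraries, 45.7 to 49.5 over those of MED19 and 33.8 to 38.8 over those of MED23, against 19.2 to 20.8 in control cells. Every knockout library lay above every control library, with changes of 1.75 ± 0.048, adjusted p = 1.2e-33, of 1.24 ± 0.047, adjusted p = 4.25e-27 and of 0.87 ± 0.047, adjusted p = 2.16e-21 in that order. BCL2L1 stood at 69.5 to 76.1, 52.7 to 61.9 and 56.2 to 60.7 CPM in the MED12, MED19 and MED23 knockouts, against 43.0 to 45.0 in control cells, again without overlap (0.73 ± 0.032, 0.37 ± 0.032 and 0.41 ± 0.032).

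BCL2A1 separated the subunits in DMSO. It was at 2.19, 2.52 and 1.85 CPM with MED12 guide 1 and 2.31, 2.21 and 2.07 with guide 2, at 0.772 to 1.10 CPM in MED19 knockout cells and at 0.181 to 0.376 CPM in MED23 knockout cells, against 0.586, 0.567 and 0.396 CPM in control cells. It rose without MED12 (2.10 ± 0.19, adjusted p = 6.49e-14) and without MED19 (0.96 ± 0.19, adjusted p = 3.53e-05), and it fell without MED23 (-1.08 ± 0.21, adjusted p = 3.71e-05). MCL1 rose slightly in the first pair (0.14 ± 0.019 and 0.18 ± 0.019) and fell without MED23, at 482 to 513 CPM against 618 to 625 CPM in control cells (-0.33 ± 0.018, adjusted p = 9.94e-21).

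In total 9 of 10 members passed in DMSO without MED12, 6 higher and 3 lower, against 54.9% of all genes (27.9% higher and 27% lower). The others were rises of BBC3 (0.26 ± 0.060) and BIK (0.94 ± 0.24) and falls of BCL2 (-0.46 ± 0.066), BMF (-0.40 ± 0.059) and BCL2L11 (-0.20 ± 0.047). Without MED19, 4 passed, all higher and all named above, against 40.6% of all genes (20.4% higher and 20.2% lower). BMF did not pass there (-0.01 ± 0.058, adjusted p = 0.954). Without MED23, 8 passed, 4 in each direction, against 36.9% of all genes (18.4% higher and 18.5% lower). These included rises of BBC3 (0.30 ± 0.061) and BMF (0.33 ± 0.056) and falls of BCL2 (-0.25 ± 0.066) and BCL2L2 (-0.12 ± 0.036), the last with overlap between the groups. The BCL2 fall was lost with guide 1 alone (-0.18, adjusted p = 0.0728). The BCL2L2 fall was lost with guide 1 alone (-0.09, adjusted p = 0.118) and without replicate 1 of control cells in DMSO (-0.09, adjusted p = 0.11).

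Under vemurafenib PMAIP1 rose and BCL2A1 and BMF fell in all 3 knockouts, which again share the 3 control libraries. PMAIP1 was at 26.2, 26.4 and 27.1 CPM with MED12 guide 1 and 28.0, 28.5 and 25.9 CPM with guide 2, against 1.57, 1.86 and 1.69 CPM in control cells. It was at 7.86 to 12.6 CPM without MED19 and at 5.70 to 9.17 CPM without MED23. No knockout library came down to the control level. The rises were 15.9-fold (3.99 ± 0.068, adjusted p = 9.62e-43), 5.88-fold (2.56 ± 0.071, adjusted p = 5.7e-33) and 4.17-fold (2.06 ± 0.075, adjusted p = 1.94e-28).

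BMF was lower in every knockout under the drug. It was at 24.9, 25.3 and 24.6 CPM with MED12 guide 1 and 19.7, 22.5 and 21.5 with guide 2, against 179, 179 and 182 CPM in control cells. It was at 88.1, 84.8 and 82.5 CPM with MED19 guide 1 and 114, 117 and 121 with guide 2, and at 148, 140.3 and 146 CPM with MED23 guide 1 and 134, 128 and 128 with guide 2. The 3 knockouts did not overlap one another or the control. BMF fell 7.82-fold without MED12 (-2.97 ± 0.038, adjusted p = 1.36e-47) and by less without MED19 (-0.85 ± 0.038) and without MED23 (-0.39 ± 0.038). BCL2L11 moved the same way, at 12.9 to 13.5, 17.3 to 19.8 and 17.0 to 20.6 CPM without MED12, MED19 and MED23, against 25.9 to 27.7 CPM in control cells (-1.01 ± 0.044, -0.52 ± 0.044 and -0.48 ± 0.045). Its opposite-strand neighbour MIR4435-2HG rose in each of these comparisons (1.47 ± 0.059, 0.45 ± 0.061 and 0.47 ± 0.063).

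BCL2A1 was at 0.433, 0.581 and 0.630 CPM with MED12 guide 1 and 0.465, 0.731 and 0.567 with guide 2 under vemurafenib, against 5.09, 5.29 and 3.82 CPM in control cells. It was at 0.934 to 2.18 CPM without MED19 and at 0.330 to 0.854 CPM without MED23, below every control library in each case. The falls were 8.25-fold (-3.04 ± 0.16, adjusted p = 1.02e-22), 3.59-fold (-1.84 ± 0.15, adjusted p = 1.18e-14) and 9.24-fold (-3.21 ± 0.17, adjusted p = 7.67e-22). MITF was lower in the same comparisons (-1.05 ± 0.029, -0.95 ± 0.029 and -0.33 ± 0.030), and its part in the BCL2A1 values was not tested. In DMSO, BCL2A1 rose without MED12 and MED19, where 0 of 7 melanoma markers, MITF among them, rose and 5 and 4 fell. Without MED23, where BCL2A1 fell in DMSO, 1 of the 7 rose and 4 fell. Of all genes, 27.9%, 20.4% and 18.4% rose and 27%, 20.2% and 18.5% fell without MED12, MED19 and MED23. The part of MITF in these DMSO values was not tested either.

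The other survival genes rose or fell by less. BCL2L1 was at 74.8 to 82.8 CPM without MED12 under the drug, against 35.0 to 37.3 CPM in control cells (1.12 ± 0.033, adjusted p = 8.79e-33), and it rose by 0.40 ± 0.032 and 0.45 ± 0.033 without MED19 and MED23. BCL2 was at 6.46 to 7.87 CPM without MED12, against 2.44 to 2.76 CPM in control cells, and rose (1.46 ± 0.082, adjusted p = 3.45e-21). Without MED23 BCL2 stood at 1.01 to 2.53 CPM and fell (-0.67 ± 0.10, adjusted p = 6.22e-08), with some overlap with control cells. The guides differed there, with -0.32, adjusted p = 0.0171 for guide 1 and -1.02, adjusted p = 4.5e-10 for guide 2. Without MED19 the BCL2 values of guides 1 and 2 differed in direction (0.42, adjusted p = 0.000299 and -0.16, adjusted p = 0.262). BCL2L2 fell in each knockout (-0.36 ± 0.036, -0.30 ± 0.036 and -0.43 ± 0.037). MCL1 differed by no more than 0.13 in size, with 0.13 ± 0.019 and 0.09 ± 0.019 for MED12 and MED19 and -0.12 ± 0.019 for MED23.

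Counted over the family, 9 of 10 members passed under vemurafenib without MED12, 5 higher and 4 lower, against 62.2% of all genes (32.5% higher and 29.6% lower). Of these, 6 changed at least 2-fold, against 21% of all genes. The median absolute log2 fold change was 1.12 over the survival genes and 1.01 over the BH3-only genes, against 0.46 over all genes tested. Without MED19, 7 passed, 3 higher and 4 lower, against 43.7% of all genes (23.1% higher and 20.7% lower), and without MED23, 9 passed, 3 higher and 6 lower, against 47.3% of all genes (24.6% higher and 22.7% lower). BIK rose without MED12 (0.91 ± 0.25, adjusted p = 0.00114). BBC3 rose without MED23, at 22.5 to 26.2 CPM against 16.5 to 18.3 CPM in control cells (0.51 ± 0.059, adjusted p = 1.6e-10). Without MED12, BBC3 did not pass (-0.12 ± 0.057, adjusted p = 0.0656), although a fit to only the groups compared gave -0.14, adjusted p = 0.00794.

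**Figure D2:**
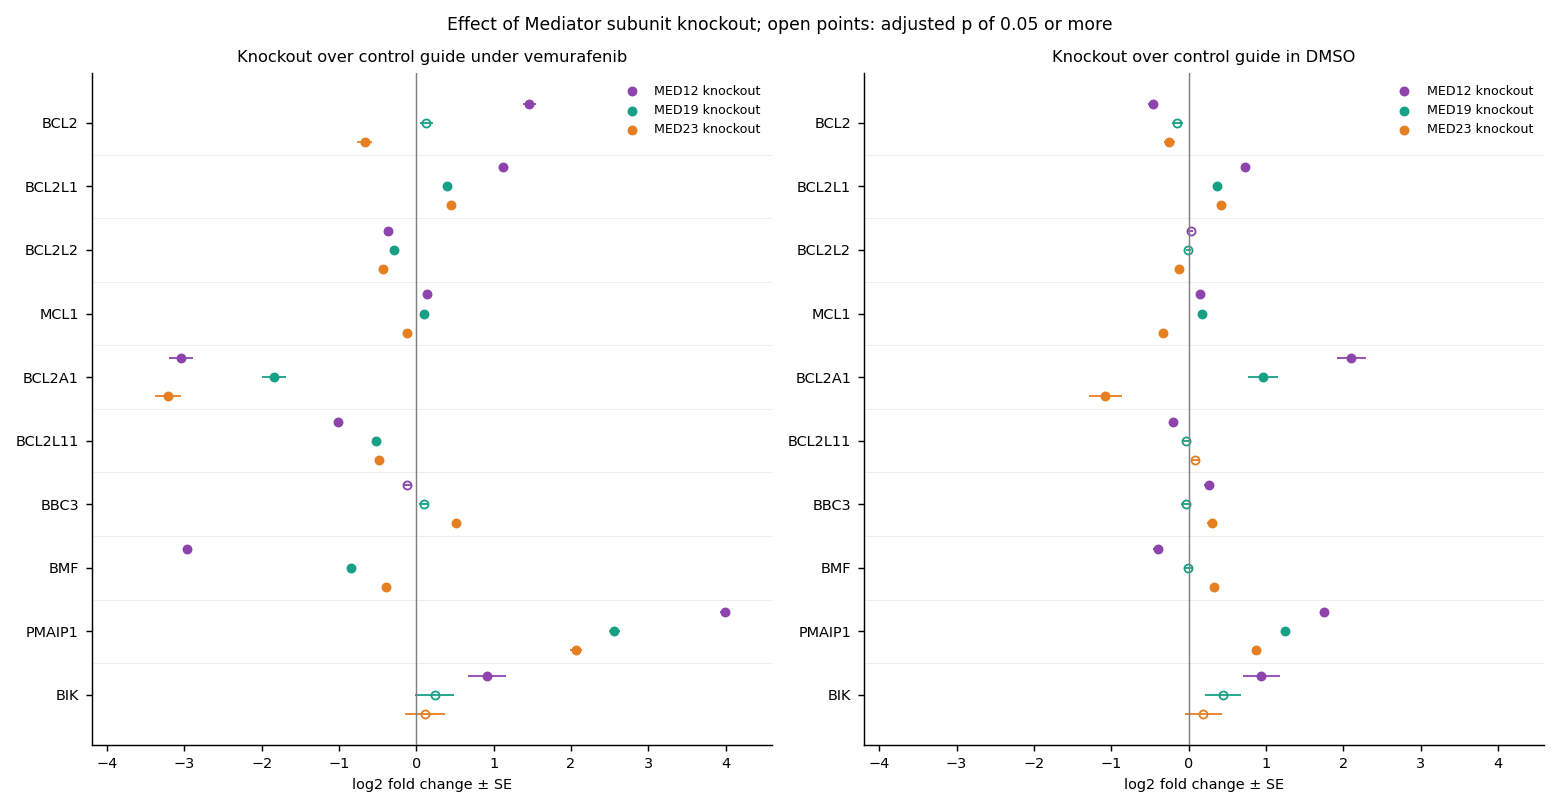
Log2 fold change ± SE of each member in MED12, MED19 and MED23 knockout cells over control cells, under vemurafenib (left) and in DMSO (right). Open points have an adjusted p of 0.05 or more. Under vemurafenib PMAIP1 lies to the right in all 3 knockouts and BCL2A1 and BMF to the left, while in DMSO BCL2A1 lies to the right for MED12 and MED19 and to the left for MED23.

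The drug response itself was then compared within each genotype. Vemurafenib changed 9 members without MED12 (63.2% of all genes passed), 10 without MED19 (70.3%) and 9 without MED23 (69.5%). BMF, BCL2L11 and BBC3 rose and BCL2, MCL1, BCL2L2 and PMAIP1 fell in each of the 3 knockouts. BMF rose by 2.61 ± 0.042, 4.34 ± 0.041 and 4.46 ± 0.040 without MED12, MED19 and MED23, and by 5.18 ± 0.058 in control cells. PMAIP1 changed by -1.32 ± 0.036, -2.25 ± 0.040 and -2.37 ± 0.043 in that order, and by -3.56 ± 0.073 in control cells.

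BCL2A1 and BCL2L1 responded to the drug without MED12 in the direction opposite to that in control cells. Without MED12 it stood at 0.433 to 0.731 CPM in vemurafenib and 1.85 to 2.52 CPM in DMSO, so the drug lowered it 3.83-fold (-1.94 ± 0.14, adjusted p = 3.98e-17), and each guide alone gave nearly the same (-1.97 and -1.90). In control cells the drug raised it by 3.21 ± 0.20. Without MED23 it rose by 1.08 ± 0.20, adjusted p = 3.09e-06, at 0.490 to 0.854 CPM with guide 1 and 0.330 to 0.456 with guide 2 under the drug and 0.181 to 0.376 CPM in DMSO, with overlap for guide 2. Without MED19 it rose by 0.40 ± 0.14, adjusted p = 0.0109, but the guides differed, with 0.00 and adjusted p = 0.988 for guide 1 and 0.80 and adjusted p = 0.000625 for guide 2. This MED19 call was also lost without replicate 2 of guide 2 in DMSO (0.32, adjusted p = 0.0527) and without replicate 2 of guide 2 in vemurafenib (0.31, adjusted p = 0.0573). The changes of BCL2L1 were smaller, with a rise of 0.12 ± 0.025 without MED12, where drug and DMSO libraries overlapped, against -0.28 ± 0.037 in control cells. BIK fell without MED19 (-0.48 ± 0.20, adjusted p = 0.0289), from low counts, and this call was lost with guide 2 alone, without the low-count filter, in a fit to only the groups compared, and in 5 of 12 fits that each left out 1 library (-0.70 to -0.37 over the 12). These 5 lacked replicates 2 or 3 of guide 1 in vemurafenib, replicate 3 of guide 2 in vemurafenib, or replicates 1 or 3 of guide 2 in DMSO.

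The difference between the knockout's and the control's drug response was tested as an interaction. Without MED12, 8 of 10 members had an interaction (49% of all genes passed), without MED19 7 (32.6%) and without MED23 8 (34.8%). The interactions of BCL2A1 were -5.15 ± 0.25, adjusted p = 1.96e-23, -2.81 ± 0.25, adjusted p = 1.86e-13 and -2.13 ± 0.28, adjusted p = 1.62e-08 for MED12, MED19 and MED23. For BMF they were -2.57 ± 0.071, -0.84 ± 0.070 and -0.72 ± 0.068, and for BCL2L11 -0.81 ± 0.065, -0.49 ± 0.065 and -0.57 ± 0.065, so both rose less than in control cells in each knockout. For PMAIP1 they were 2.24 ± 0.084, 1.31 ± 0.087 and 1.19 ± 0.090, so it fell less. Over all genes tested, the drug response was also smaller in each knockout. Its median absolute log2 fold change was 0.40, 0.56 and 0.57 without MED12, MED19 and MED23, against 0.68 in control cells. BCL2 fell less without MED12 (1.92 ± 0.11, adjusted p = 2.28e-21) and more without MED23 (-0.42 ± 0.12, adjusted p = 0.00334), and the second of these was lost with guide 1 alone (-0.14, adjusted p = 0.508). The fall of MCL1 gave no interaction that passed with MED12 loss (-0.01 ± 0.026, adjusted p = 0.856), and it was smaller without MED23 (0.21 ± 0.026, adjusted p = 3.45e-09). Of the 8 ERK output genes, 8, 8 and 7 fell without MED12, MED19 and MED23 (medians -2.32, -3.27 and -3.17), and 8 in control cells (median -3.32).

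**Figure D3:**
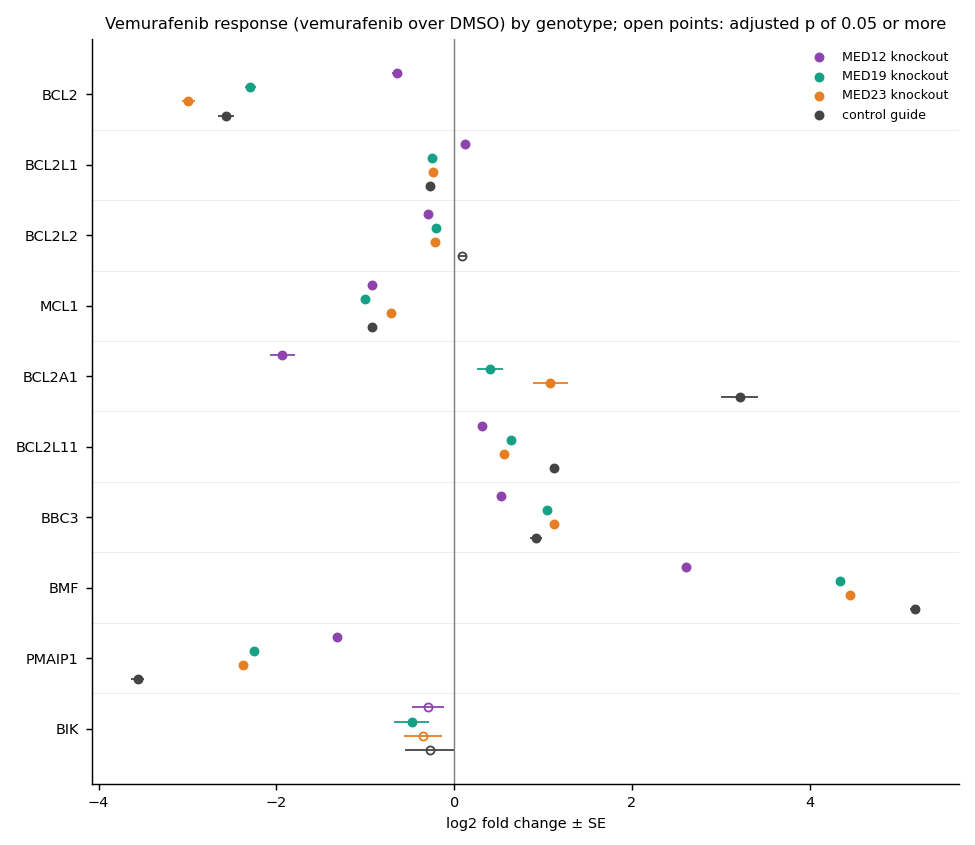
Log2 fold change ± SE of each member in vemurafenib over DMSO, in MED12, MED19 and MED23 knockout cells and in control cells. Open points have an adjusted p of 0.05 or more. BCL2A1 lies at -1.94 without MED12 and at 3.21 in control cells, while MCL1 lies below 0 in all 4.

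The balance of BH3-only to survival mRNA was described as the share of the 5 BH3-only genes in the summed CPM per kb of all 10 members, without a test. In vemurafenib the share was 18.4 ± 0.226% and 17.9 ± 0.492% with MED12 guides 1 and 2, 23.6 ± 0.376% and 26.3 ± 0.257% with those of MED19, 32.0 ± 0.330% and 31.3 ± 0.638% with those of MED23 and 31.6 ± 0.355% in control cells (SD, n = 3). In DMSO it was 16.2 ± 0.202% and 16.6 ± 0.251%, 13.1 ± 0.418% and 12.7 ± 0.163%, and 14.5 ± 0.140% and 15.3 ± 0.172% in that order, and 8.77 ± 0.299% in control cells. The drug moved the share by the largest step in control cells and by the smallest without MED12, whose DMSO cells already had the highest shares. Without MED12 the BH3-only sum itself fell with the drug, to 28.1 and 27.7 CPM per kb from 40.1 and 41.2. The survival sum fell there to 124 and 127 from 207 with each guide. In control cells under the drug, BMF made up 36.6 of a BH3-only sum of 50.3. MCL1 made up 80.4 of a survival sum of 109 in these cells. The share is one of mRNA and says nothing of protein.

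SOX10 overexpression raised BCL2A1 and BMF and lowered BCL2L1 and PMAIP1, both in control cells and in MED23 knockout cells. SOX10 mRNA itself changed little in the control cells, as given above, so the overexpression is taken from the labels. In control cells, 5 of 10 passed with SOX10, 3 higher and 2 lower, against 22.6% of all genes (11.6% higher and 11% lower). BCL2A1 was at 1.44, 1.67 and 1.94 CPM with SOX10 and 0.709, 0.465 and 0.698 CPM with the empty vector, and rose (1.42 ± 0.22, adjusted p = 8.96e-06). BMF was at 6.43, 7.49 and 6.15 CPM with SOX10 and 4.85, 4.49 and 4.77 CPM with the vector (0.50 ± 0.11, adjusted p = 0.000666), and BCL2L11 rose by 0.30 ± 0.072. In each case the groups did not overlap. BCL2L1 was at 33.0, 31.2 and 32.8 CPM with SOX10 and 47.4, 47.7 and 47.5 CPM with the vector, and fell without overlap (-0.55 ± 0.042, adjusted p = 1.11e-11), as did PMAIP1 (-0.34 ± 0.072). MCL1, at 509, 512 and 504 CPM with SOX10 and 503, 523 and 509 CPM with the vector, did not pass (-0.01 ± 0.030, adjusted p = 0.863). MITF rose with SOX10 in these cells (0.70 ± 0.043), and its part in the BCL2A1 values was not tested.

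In MED23 knockout cells, SOX10 changed 5 members, against 41.9% of all genes. BCL2A1 was at 0.887, 0.757 and 0.751 CPM with SOX10 and 0.267, 0.369 and 0.354 CPM with the vector (1.26 ± 0.30, adjusted p = 0.000958), and PMAIP1 at 17.9, 20.4 and 19.7 CPM and 31.3, 28.2 and 31.9 CPM in the same order (-0.66 ± 0.060, adjusted p = 2.02e-10). BCL2L1 fell (-0.41 ± 0.040) and BMF rose (0.49 ± 0.10). Of the 10 members, 1 had an interaction between SOX10 and MED23 loss, against 14.7% of all genes. This was PMAIP1, which SOX10 lowered more without MED23 (-0.32 ± 0.094, adjusted p = 0.0175), and the call was lost in 4 of 12 fits that each left out 1 library (-0.38 to -0.27), those without replicate 3 of control cells with the vector, without replicates 1 or 3 of control cells with SOX10, and without replicate 3 of MED23 knockout cells with the vector. BCL2A1 had an interaction of -0.16 ± 0.40, adjusted p = 0.861 and BMF of -0.01 ± 0.14, adjusted p = 0.98. BIK fell with SOX10 in MED23 knockout cells (-1.26 ± 0.38, adjusted p = 0.00849), from 5 to 13 counts per library in this experiment.

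MED23 loss was repeated here with guide 1 only. With the empty vector 7 members passed, 3 higher and 4 lower, against 43.4% of all genes (21.2% higher and 22.3% lower), and with SOX10 also 7, against 32.4%. PMAIP1 rose without MED23 in the vector cells (0.96 ± 0.062, adjusted p = 1.14e-13) and in the SOX10 cells (0.64 ± 0.069, adjusted p = 1.16e-08). BCL2L1 rose (0.26 ± 0.039 and 0.40 ± 0.042) and MCL1 fell (-0.29 ± 0.030 and -0.27 ± 0.030) in the same 2 settings. In the vector cells the falls of BCL2 (-0.20), BCL2L2 (-0.12) and BCL2A1 (-0.91) and the rise of BMF (0.31) were lost by DESeq2 and in 2, 5, 3 and 3 of 6 fits that each left out 1 library. Between 4 and 6 members passed in those fits. The low of 4 came without replicate 2 of the control cells, where BCL2 gave -0.16, adjusted p = 0.098 and BMF 0.27, adjusted p = 0.0818, and without replicate 1 of the MED23 knockout cells, where BCL2A1 gave -0.79, adjusted p = 0.0794. In the SOX10 cells the fall of BCL2A1 (-1.07 ± 0.20, adjusted p = 0.000118) held in all 6 such fits, while the rise of BMF (0.30 ± 0.095, adjusted p = 0.0156) was lost in 3 of 6 (0.23 to 0.38), with overlap between its groups, and the fall of BIK (-1.18 ± 0.39, adjusted p = 0.0191) in 2 of 6 (-1.29 to -1.05).

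HDAC3 loss raised BCL2A1 and BMF and lowered BCL2, BCL2L1 and PMAIP1. All comparisons with the control cells of this experiment rest on 3 columns named for GFP, which were taken as its controls by elimination. Of the 10 members, 9 passed, 6 higher and 3 lower, against 42.1% of all genes (21.2% higher and 20.9% lower). BCL2A1 was at 11.1, 10.9 and 12.6 CPM without HDAC3 and 1.20, 0.779 and 1.03 CPM in controls, a rise of 11.4-fold (3.51 ± 0.14, adjusted p = 5.67e-15). BMF was at 6.78, 7.24 and 6.31 CPM without HDAC3 and 2.64, 2.07 and 1.73 CPM in controls, a rise of 3.15-fold (1.65 ± 0.12, adjusted p = 2.05e-10). Neither gene's groups overlapped. MITF rose in this comparison too (1.66 ± 0.054), and its part was not tested. BCL2 was at 7.31, 7.12 and 8.13 CPM without HDAC3 and 12.8, 12.9 and 12.9 CPM in controls (-0.77 ± 0.077, adjusted p = 2.75e-08), BCL2L1 at 33.4, 30.2 and 28.5 CPM and 44.4, 43.4 and 43.6 CPM (-0.51 ± 0.064, adjusted p = 8.38e-07). PMAIP1 fell too (-0.44 ± 0.080), without overlap. MCL1 (0.26 ± 0.043), BCL2L2 (0.38 ± 0.057), BBC3 (0.56 ± 0.10) and BCL2L11 (0.25 ± 0.076) rose by less. The rise of BCL2L11 was lost without replicate 2 of the HDAC3 knockout (0.21, adjusted p = 0.0556).

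MED23 loss alone moved 5 members in this experiment, 3 higher and 2 lower, against 24.3% of all genes (12.3% higher and 12% lower). PMAIP1 was at 32.9, 35.6 and 36.9 CPM without MED23 and 19.1, 22.5 and 24.0 CPM in controls (0.68 ± 0.077, adjusted p = 3.42e-07), BMF at 4.09, 3.91 and 3.86 CPM and 2.64, 2.07 and 1.73 CPM (0.88 ± 0.12, adjusted p = 8.48e-06). MCL1 (-0.29 ± 0.043) and BCL2A1 (-0.82 ± 0.18) fell. BCL2L1 rose (0.19 ± 0.062, adjusted p = 0.0269), a call that was lost without replicate 1 of the MED23 knockout (0.12, adjusted p = 0.215), without replicate 2 of the controls (0.18, adjusted p = 0.0835) and without replicate 3 of the controls (0.19, adjusted p = 0.0774). Without MED23, PMAIP1 thus rose and MCL1 and BCL2A1 fell in each of the 3 experiments, each with its own control libraries. In the vector cells of the SOX10 experiment, the BCL2A1 fall was lost by DESeq2 and in 3 of 6 fits that each left out 1 library.

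By CPM, cells without both HDAC3 and MED23 lay between the single knockouts for BCL2A1 and BMF. BCL2A1 was at 4.18, 3.36 and 3.40 CPM in the double knockout, below 11.1, 10.9 and 12.6 CPM without HDAC3 and above 0.562, 0.490 and 0.658 CPM without MED23 and 1.20, 0.779 and 1.03 CPM in controls. BMF, at 5.87, 5.63 and 6.05 CPM, lay between the HDAC3 knockout (6.31 to 7.24) and the MED23 knockout (3.86 to 4.09). Its difference from the HDAC3 knockout did not pass (-0.21, adjusted p = 0.174). Against controls, 6 members passed in the double knockout, 5 higher and 1 lower against 36.6% of all genes (18.2% higher and 18.4% lower). These were BCL2A1 (1.85 ± 0.15), BMF (1.44 ± 0.12), PMAIP1 (0.58 ± 0.078), BBC3 (0.47 ± 0.10), BCL2L11 (0.21 ± 0.076) and BCL2 (-0.50 ± 0.076). The BCL2L11 rise was lost in 5 of 6 fits that each left out 1 library (0.17 to 0.23), all but that without replicate 1 of the double knockout. BCL2L1 (0.03 ± 0.063, adjusted p = 0.716) and MCL1 (-0.01 ± 0.043, adjusted p = 0.856) did not pass. BCL2L1 was at 45.2, 44.9 and 44.5 CPM in the double knockout and 44.4, 43.4 and 43.6 CPM in controls, and MCL1 at 495, 545 and 557 CPM and 520.3, 547 and 544 CPM.

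HDAC3 loss on top of MED23 loss changed 6 members, 5 higher and 1 lower, against 38% of all genes (19.1% higher and 18.9% lower). BCL2A1 rose (2.67 ± 0.16, adjusted p = 1.68e-11), as did BMF (0.56 ± 0.12, adjusted p = 0.000613) and MCL1 (0.28 ± 0.043), and BCL2 fell (-0.39 ± 0.077). Rises of BBC3 (0.32 ± 0.10) and BCL2L11 (0.20 ± 0.077) were lost when single libraries were left out. For BBC3 these were replicate 2 of the double knockout (0.27, adjusted p = 0.0686) and replicate 3 of the MED23 knockout (0.26, adjusted p = 0.0642), and for BCL2L11 they were all but replicate 3 of the MED23 knockout (0.14 to 0.26). BCL2L1 did not pass (-0.16 ± 0.063, adjusted p = 0.0538), but it did in the fit with the replicate block, which pairs libraries of the same number (-0.15, adjusted p = 0.0163). PMAIP1 gave -0.11 ± 0.077, adjusted p = 0.303. MED23 loss on top of HDAC3 loss changed 6 members, 3 in each direction, against 35.5% of all genes (17.2% higher and 18.3% lower). PMAIP1 (1.01 ± 0.081, adjusted p = 9.39e-10), BCL2L1 (0.55 ± 0.065) and BCL2 (0.27 ± 0.080) rose, and BCL2A1 (-1.66 ± 0.13, adjusted p = 5.12e-10), BCL2L2 (-0.48 ± 0.058) and MCL1 (-0.28 ± 0.043) fell. The BCL2 rise was lost without replicate 3 of the double knockout (0.21, adjusted p = 0.0644) and without replicate 2 of the HDAC3 knockout (0.23, adjusted p = 0.0585). BMF did not pass (-0.21 ± 0.12, adjusted p = 0.174).

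The effect of HDAC3 loss differed between cells with and without MED23 for 6 members, against 20.5% of all genes. BMF rose less without MED23 (-1.09 ± 0.17, adjusted p = 5.28e-05), and so did BCL2A1 (-0.84 ± 0.23, adjusted p = 0.0092). BCL2L2 (-0.38 ± 0.081) had a negative interaction too, and BCL2 (0.39 ± 0.11), BCL2L1 (0.35 ± 0.090) and PMAIP1 (0.33 ± 0.11) a positive one, since the values after HDAC3 loss were less negative without MED23. The PMAIP1 interaction was lost in 8 of 12 fits that each left out 1 library (0.26 to 0.42), all but those without replicate 1 of the controls, 2 of the HDAC3 knockout, 3 of the MED23 knockout or 1 of the double knockout.

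**Figure D4:**
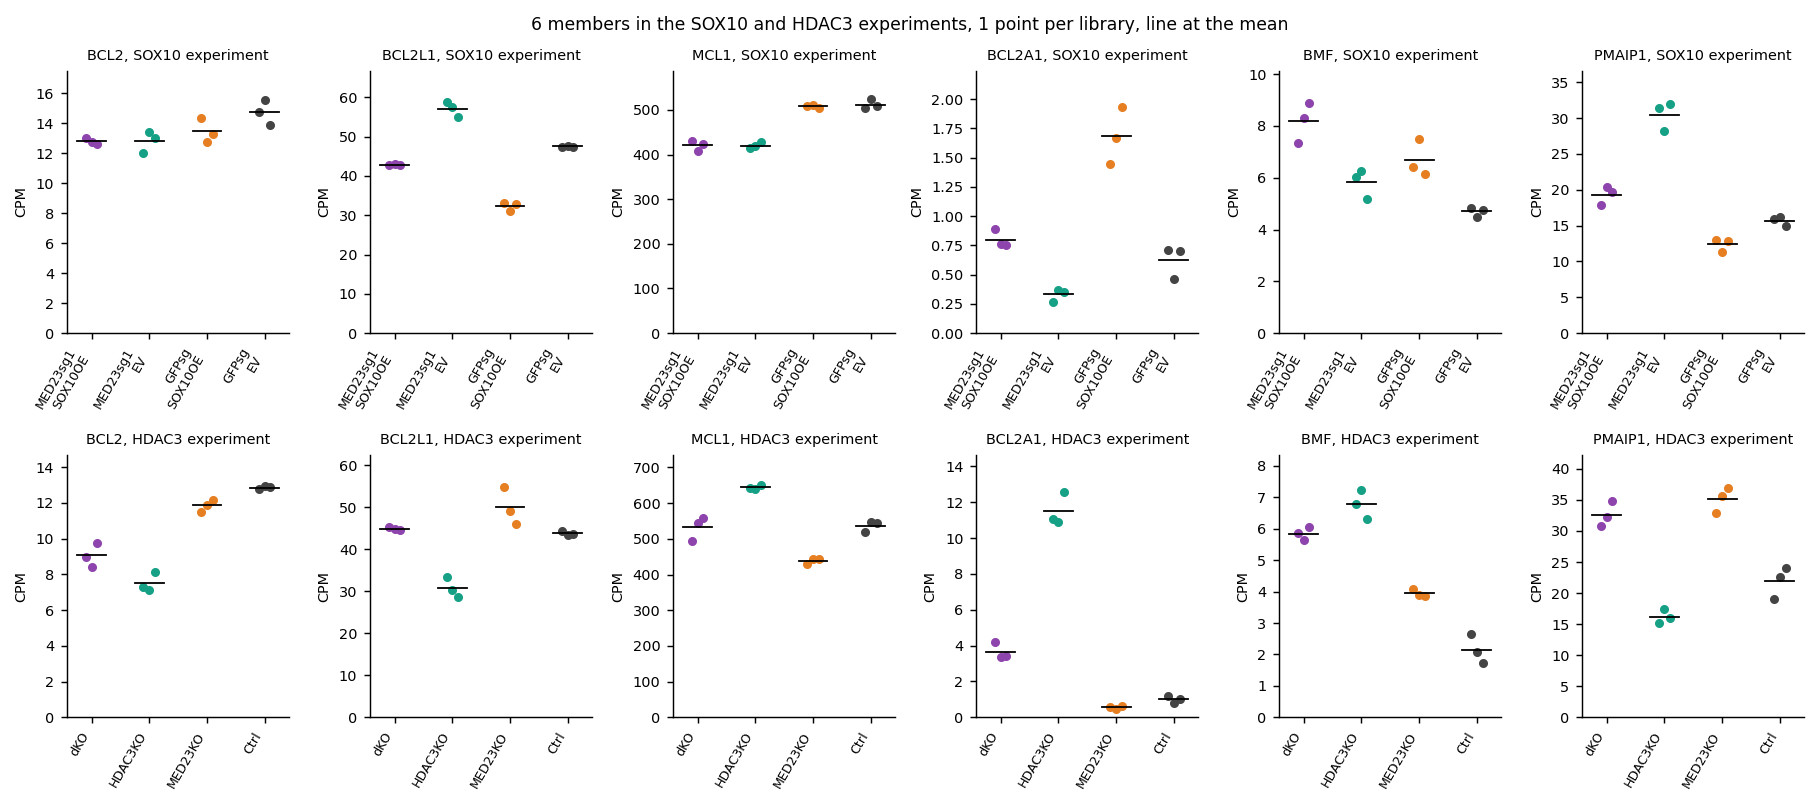
CPM of 6 members in each library of the SOX10 experiment (top) and the HDAC3 experiment (bottom), 1 point per library with a line at the mean of 3 (SOX10OE is overexpression, EV the empty vector, dKO the double knockout, Ctrl the controls). BCL2A1 is highest in HDAC3 knockout cells, at 10.9 to 12.6 CPM, and MED23 knockout cells have more PMAIP1 than controls in both experiments.

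The rest of the death pathway was read from lists of genes, described by counts beside the same values over all genes. In control cells under vemurafenib 66.2% of all genes (35.8% higher and 30.3% lower) passed, and their median log2 fold change was 0.11. Here 6 of 12 tested effectors and other BCL2-related genes rose and 4 fell (median 0.15). BAX rose slightly (0.13 ± 0.031, adjusted p = 0.000424) and BAK1 fell (-0.82 ± 0.044, adjusted p = 5.42e-22). Of 11 genes of the apoptosome and the caspases 5 rose and 6 fell (median -0.13), with DIABLO, which frees caspases from their inhibitors, at 1.09 ± 0.086 and cytochrome c (CYCS) at -1.59 ± 0.040. Of 7 inhibitors of apoptosis 2 rose and 3 fell (median -0.09), with survivin (BIRC5) at -3.10 ± 0.054 and CFLAR, the inhibitor of caspase 8, at 1.09 ± 0.052. Of 8 tested genes of a list of death receptors, related receptors, ligands and adaptors (the receptor list), 3 rose and 4 fell (median -0.06). The TRAIL receptor TNFRSF10A changed by -2.03 ± 0.050.

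MED12 loss in DMSO raised 6 of 8 genes of the receptor list, ligands and adaptors included, and lowered 1 (median 0.73). It raised 8 of 11 apoptosome and caspase genes and lowered 3 (median 0.32). Of all genes, 27.9% rose and 27% fell, with a median of 0.00 and a median absolute log2 fold change of 0.36. FAS rose by 1.36 ± 0.041, TNFRSF10A by 1.03 ± 0.039 and caspase 10 (CASP10) by 0.95 ± 0.066. FAS also rose without MED19 (0.64 ± 0.040) and without MED23 (0.65 ± 0.040). In these knockouts 5 and 4 of the 8 genes of the receptor list rose and 0 and 1 fell. Of all genes, 20.4% and 18.4% were higher and 20.2% and 18.5% lower. Under vemurafenib, MED12 loss raised 6 of 8 genes of the receptor list and lowered 2 (median 0.46), with FAS at 1.67 ± 0.043 and TNFRSF10A at 1.95 ± 0.046. Of all genes, 32.5% were higher and 29.6% lower (median -0.00). It raised 8 of 12 effectors and related genes and lowered 1 (median 0.31), with BAK1 at 0.70 ± 0.039 and BID at 0.86 ± 0.050. Of 7 inhibitors of apoptosis 2 rose and 4 fell (median -0.27), with BIRC5 at 1.82 ± 0.049.

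Among 15 known regulators of the members, vemurafenib in control cells raised 9 and lowered 6 (median 0.48), against 35.8% of all genes higher and 30.3% lower (median 0.11). JUN, part of AP-1, changed by 4.98 ± 0.047, the forkhead factor FOXO3 by 1.26 ± 0.035 and MYC by -3.26 ± 0.10. Under vemurafenib without MED12, 4 of the 15 rose and 8 fell (median -0.19), against 32.5% of all genes higher and 29.6% lower (median -0.00), with JUN at -3.24 ± 0.033, FOXO3 at -0.77 ± 0.029 and E2F1 at 2.47 ± 0.078. HDAC3 loss raised 5 of 14 tested regulators and lowered 3 (median 0.05), against 21.2% of all genes higher and 20.9% lower (median -0.00), with the stress factor DDIT3 at 1.36 ± 0.093 and FOXO1 at 1.43 ± 0.073. These values stand beside those of the members, and no link between them was tested.

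Genes with the most similar pattern were searched for the 5 members whose log2 CPM varied with an SD of at least 0.5 over the 14 group means of the Mediator experiment, among 12188 other expressed genes (12189 for BCL2A1). BMF was like APC2 and GALNS (Pearson r = 0.994 and 0.993 over 14 group means), PMAIP1 like B3GLCT, MTMR1 and TNFRSF12A (0.994, 0.99 and 0.988). BCL2 was most like ZNF367, PDP2 and MTFR2 (0.989, 0.988 and 0.979), BBC3 like ATOH8, BRD3OS and MXD4 (0.991, 0.984 and 0.984). BCL2A1 was like TMEM51 and SLC9A8 (0.96 and 0.942). The genes named are among the 3 most alike for each member. The 14 means share 1 table, its scaling and the large contrast between drug and DMSO, and r is given as a description.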

How the data were processed

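Poly(A) RNA of A375 cells was sequenced with a stranded kit, per the labels' protocols. The authors deposited raw read counts per gene in 3 tables, 1 per experiment. The submitters' processing notes name bcl2fastq, HISAT2, HTSeq and build hg38. Versions, annotation and strand setting: not given in the sources used here. All 58721 IDs equal those of GENCODE 29, which gave names, coordinates and exon lengths. In the HDAC3 table, 3 control columns were assigned by elimination. The 10 members and all lists were chosen with earlier results of these data known.

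Each table was fitted on its own with edgeR 4.0.16 (limma 3.58.1, R 4.3.3): TMM scaling, genes kept by filterByExpr (minimum count 10, total 15; 27453, 18009 and 21139 genes), 1 mean per group, quasi-likelihood F tests for 24 contrasts and Benjamini-Hochberg adjustment over all genes tested. The SE is the log2 fold change over the square root of F. CPM are counts scaled to the TMM-adjusted library total. Named pathway genes are, per list and comparison, up to 4 with the largest change among called genes whose groups do not overlap and whose mean log2 CPM reaches 2. Alternatives were DESeq2 1.42.0 (its size factors, and its Wald test), no low-count filter, a replicate block, only the groups compared, each guide alone, and leaving out each library. Checked on simulated counts in the vemurafenib comparison of control cells, the fit recovered 100 of 100 genes changed 2-fold and 99 of 100 changed 1.5-fold. It called 19 unchanged genes among 22499 tested. The changed genes had a log2 CPM above 2 in DMSO, and only the 2 groups compared were fitted. The check therefore does not cover members scarce in DMSO, such as BCL2A1 and BIK. Between the double knockout and the MED23 knockout, same-numbered libraries deviated together in all 3 pairs (r of 0.152 to 0.332, mean 0.218). These are therefore read also with the block. Between the HDAC3 knockout and its controls r was 0.092 to 0.568 (mean 0.312), and the block changed no member's call there. The same held between vemurafenib and DMSO in MED12 knockout cells, where r was -0.182 to 0.483 over 18 pairs (mean 0.133). Some genes that the rules would name are not reported here.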

Additional observations from a re-analysis of the deposited data

Results flagged for a closer look

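The drug response of 23 member and subunit pairs differed between knockout and control cells by the interaction test of edgeR (Benjamini-Hochberg, adjusted p under 0.05). Of all genes, 49%, 32.6% and 34.8% passed this test for MED12, MED19 and MED23. Each value is the log2 response of the knockout minus that of control cells. Without MED12 these were BCL2A1 at -5.15, BMF at -2.57, PMAIP1 at 2.24, BCL2 at 1.92, BCL2L11 at -0.81, BCL2L1 at 0.39, BCL2L2 at -0.39 and BBC3 at -0.38. Without MED19 they were BCL2A1 at -2.81, PMAIP1 at 1.31, BMF at -0.84, BCL2L11 at -0.49, BCL2L2 at -0.29, BCL2 at 0.27 and MCL1 at -0.0826. Without MED23 they were BCL2A1 at -2.13, PMAIP1 at 1.19, BMF at -0.72, BCL2L11 at -0.57, BCL2 at -0.42, BCL2L2 at -0.31, MCL1 at 0.21 and BBC3 at 0.21.

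Some of these were near the threshold. The BCL2 value without MED19 (adjusted p = 0.0496) was lost in 11 of 18 fits that each left out 1 library (0.17 to 0.32), and the BBC3 value without MED23 in 12 of 18 (0.16 to 0.29). The MCL1 value without MED19 was lost without the low-count filter (-0.05, adjusted p = 0.503) and with guide 1 alone (-0.07, adjusted p = 0.0686). The libraries behind the BCL2 and BBC3 losses came from every group compared, control cells included.

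The effect of SOX10 overexpression differed between MED23 knockout and control cells for PMAIP1, at -0.32. The effect of HDAC3 loss differed between MED23 knockout and control cells for BMF at -1.09, BCL2A1 at -0.84, BCL2 at 0.39, BCL2L2 at -0.38, BCL2L1 at 0.35 and PMAIP1 at 0.33. Of all genes, 14.7% passed for SOX10 and 20.5% for HDAC3. The interactions of 1 experiment share their control libraries.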

How the results depend on the processing

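Of 168 called member values, 146 kept their direction and their call in every alternative run and 22 lost the call in at least 1. 1 of these turned sign, the BCL2 interaction with MED19 loss, at -0.0151, adjusted p = 0.962 with guide 2 alone against 0.27 ± 0.11, adjusted p = 0.0496 with both; its cause was not tested. With a replicate block this BCL2 value also lost its call (0.27, adjusted p = 0.0601), BCL2L2 in control cells passed under vemurafenib (0.09, adjusted p = 0.0468), as did BCL2L2 with SOX10 in MED23 knockout cells (-0.12, adjusted p = 0.0471, against -0.12 ± 0.049, adjusted p = 0.0543 without it). The block otherwise changed the call of BCL2L1 after HDAC3 loss in MED23 knockout cells, where the numbers were taken as pairs, and no other. Values near 0 turned sign without passing. The MCL1 interaction with MED12 loss (-0.01) became 0.0329 with DESeq2 size factors, 0.0344 without the filter, 0.00507 with guide 2 alone and 0.0329 with the Wald test, and ran from -0.0136 to 0.00369 when single libraries were left out. BMF in DMSO without MED19 (-0.01) became 0.0487 with guide 2 alone and ran from -0.0522 to 0.0651. When single libraries were left out, MCL1 with SOX10 ran from -0.0219 to 0.00669, the SOX10 interactions of BCL2A1 and BMF from -0.284 to 0.00884 and from -0.0874 to 0.0718, and MCL1 in the double knockout from -0.0453 to 0.0372. Counts of members called moved by over 1.5 times for MED23 loss in vector cells (7; 3 by DESeq2's Wald test, 4 to 6 leaving out single libraries) and for the SOX10 interaction (1; 0 to 1). Depth limits BIK (5 to 140 counts per library) and BCL2A1 in the SOX10 experiment.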

Other observations

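Genes that act on the members' proteins, or beside them, also moved. Of 4 genes of protein turnover, vemurafenib in control cells raised 2 and lowered 1 (median log2 fold change 0.14), against 35.8% of all genes higher and 30.3% lower (median 0.11). FBXW7, a ubiquitin ligase subunit known to mark MCL1 for destruction, rose (0.42 ± 0.050, adjusted p = 2.41e-10), and so did USP9X, known to spare MCL1 (0.26 ± 0.025, adjusted p = 8.42e-13). Under vemurafenib without MED12, 1 of the 4 rose and 3 fell (median -0.17), against 32.5% of all genes higher and 29.6% lower (median -0.00), with FBXW7 at -0.42 ± 0.043 and USP9X at -0.14 ± 0.022. FBXW7 also fell without MED19 (-0.29 ± 0.043) and without MED23 (-0.31 ± 0.044) under the drug. XIAP, an inhibitor of caspases, fell in the same 2 comparisons (-0.42 ± 0.034 and -0.55 ± 0.034), while the death receptor genes FAS (0.80 ± 0.042 and 0.64 ± 0.043) and TNFRSF10A (0.88 ± 0.047 and 0.62 ± 0.048) rose.

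HDAC3 loss raised 3 of 6 tested inhibitors of apoptosis and lowered 1 (median 0.13), against 21.2% of all genes higher and 20.9% lower (median -0.00). BIRC3, a target of NF-kB, rose most among them (1.87 ± 0.10, adjusted p = 4.73e-13). Of 11 tested effectors and related genes 5 rose and 4 fell (median 0.21), with BOK, a relative of BAX, at -1.18 ± 0.11. Of 7 tested genes of the receptor list 2 rose and 1 fell (median 0.31), FAS at 0.57 ± 0.068, TNFRSF10B at 0.68 ± 0.041 and TNFRSF10A at -0.45 ± 0.062. SOX10 overexpression in control cells lowered 2 of 7 tested genes of the receptor list and raised 0 (median -0.19). Of all genes, 11% were lower and 11.6% higher (median -0.00). The shares of the receptor list with HDAC3 loss are near those of all genes. Those with SOX10 rest on 7 genes, too few to be read against the shares of all genes. No link of these genes to the members was tested.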
